A study of Mus musculus with 12 samples.

Results

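The genes described here encode the T cell receptor complex and the proteins that act first when it is engaged: Cd3d, Cd3e, Cd3g, Cd247, Lck, Zap70, Cd2, Cd4 and Cd5. They are 9 of the 55487 gene identifiers in the count table, were chosen by name for their role and not by a measured value, and were matched by mouse symbol to 1 Ensembl identifier each. All 9 passed the filter on low counts that left 16974 genes to test. RNA came from tumours that Sq-1979, a single murine cell line of squamous cancer of the head and neck, formed subcutaneously in male C3H/HeN mice, which were 6 weeks old when given the cells in Matrigel. From day 20 the mice received vehicle, an antibody that blocks PD1 (anti-PD1), regorafenib at 5 mg/kg/day, which inhibits several receptor tyrosine kinases, or both agents (the combination). The 12 libraries form 4 groups of 3, and all groups share the line, strain, sex, age and site. The labels give daily oral gavage as the route without a separate route or dose for the antibody, and they leave unsaid whether each sample of a group is another mouse. All p-values here thus measure the spread between samples, which may be technical.

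A T cell recognises antigen through a receptor of variable chains that cannot signal by themselves. They are held in a complex with CD3 delta, epsilon and gamma and with the CD3 zeta chain encoded by Cd247, whose cytoplasmic tails carry tyrosine motifs. LCK, a kinase of the SRC family brought to the receptor by the coreceptor CD4 or CD8, phosphorylates these motifs, ZAP-70 docks on them, and the adaptor LAT carries the signal on. CD2 is an adhesion and costimulatory receptor of T and NK cells, and CD5 dampens receptor signals. In a bulk tumour these transcripts come mainly from infiltrating lymphocytes, and fewer T cells cannot be told apart from less RNA per T cell.

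Cd3g, Cd3d and Cd3e lie side by side on chromosome 9 (GRCm38, GENCODE M21) within 40056 bases. Cd3g (44969572 to 44980431, minus strand) and Cd3d (44981786 to 44987339, plus strand) point away from each other with start sites 1355 bases apart. Cd3e (44998740 to 45009627, minus strand) runs towards Cd3d, and their 3′ ends are 11400 bases apart. Cd247 stands alone on chromosome 1 (165788681 to 165877277, plus strand). All 9 genes were highest in the same 4 libraries, as described below, so that pattern is not particular to the CD3 chains. The promoters of these 4 CD3 chains are shown. They are RefSeq sequences of GRCm38.p6, ending at the base before the start site in GENCODE M21, with capitals marking CAGGTG or its reverse complement CACCTG, the form of the E-box preferred by E proteins.
Cd3g, chr9:44980432-44980681, minus strand: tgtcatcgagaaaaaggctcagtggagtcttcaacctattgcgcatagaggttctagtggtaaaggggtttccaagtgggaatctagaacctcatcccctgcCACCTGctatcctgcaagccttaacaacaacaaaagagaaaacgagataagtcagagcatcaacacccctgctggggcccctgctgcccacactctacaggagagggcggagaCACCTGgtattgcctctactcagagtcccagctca
Cd3d, chr9:44981536-44981785, plus strand: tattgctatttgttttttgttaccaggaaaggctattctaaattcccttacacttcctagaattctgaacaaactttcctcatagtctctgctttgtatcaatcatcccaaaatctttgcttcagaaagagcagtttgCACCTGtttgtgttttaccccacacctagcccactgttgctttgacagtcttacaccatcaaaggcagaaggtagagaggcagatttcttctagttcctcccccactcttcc
Cd3e, chr9:45009628-45009861, minus strand: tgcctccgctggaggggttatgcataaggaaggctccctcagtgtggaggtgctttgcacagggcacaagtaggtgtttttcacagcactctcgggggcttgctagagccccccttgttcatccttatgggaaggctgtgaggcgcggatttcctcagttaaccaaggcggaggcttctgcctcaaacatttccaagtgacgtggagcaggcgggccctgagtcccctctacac
Cd247, chr1:165788431-165788680, plus strand: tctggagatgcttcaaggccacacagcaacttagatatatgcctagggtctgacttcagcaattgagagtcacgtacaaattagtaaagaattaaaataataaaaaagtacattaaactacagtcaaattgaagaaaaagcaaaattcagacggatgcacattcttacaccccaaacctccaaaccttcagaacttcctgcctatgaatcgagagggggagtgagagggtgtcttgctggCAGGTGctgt
Cd3g held 2 matches in these bases, Cd3d and Cd247 held 1 each, and Cd3e held 0, its match lying past the last printed base. The RefSeq table, with windows of 250 bases before to 50 after a start site, had 10 promoters for 7 of the 9 genes. CAGGTG was found on either strand in 9 of these 10, in at least 1 promoter of each of the 7 genes, against 20.2% of all 32851 promoters and 22.6% of 27025 genes. It is 1 form of the general E-box CANNTG, which was in 10 of 10 and in 72.3% of all promoters. The other 5 sequences searched were the RUNX core TGTGGT in 2 of 10 (16.8% of all), the ETS core GGAAG in 8 of 10 (71.4%), TATAAA in 0 of 10 (13.6%), the cyclic AMP element TGACGTCA in 1 of 10 (1.79%), and TGACG, which that element contains, in 2 of 10 (20.8%). Several promoters belong to 1 gene, and a match is a description of the letters only.

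The libraries held 22591835 to 28209036 counts, and the 9 genes had 38 (Cd247 in combination 1) to 1738 (Cd4 in anti-PD1 3) counts in a library. Counts were scaled to CPM (counts-per-million) with TMM factors. In all 9 genes, anti-PD1 3, regorafenib 1, regorafenib 2 and combination 3 lay above the other 8 libraries. The share of all tested genes with this separation was not computed. Ordered by the mean log2 CPM of the 9 genes, the libraries showed their widest gap, 0.65, below these 4, and the next widest was 0.30. Set against the average of vehicle, they were higher by 1.39, 1.15, 1.28 and 1.24 on the log2 scale. The same difference was 0.50 in anti-PD1 1 and 0.46 in combination 2, 0.01 in anti-PD1 2, -0.13 in regorafenib 3 and -0.39 in combination 1. Every treatment thus had at least 1 library well above vehicle and 1 close to or below it.

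**Figure D1:**
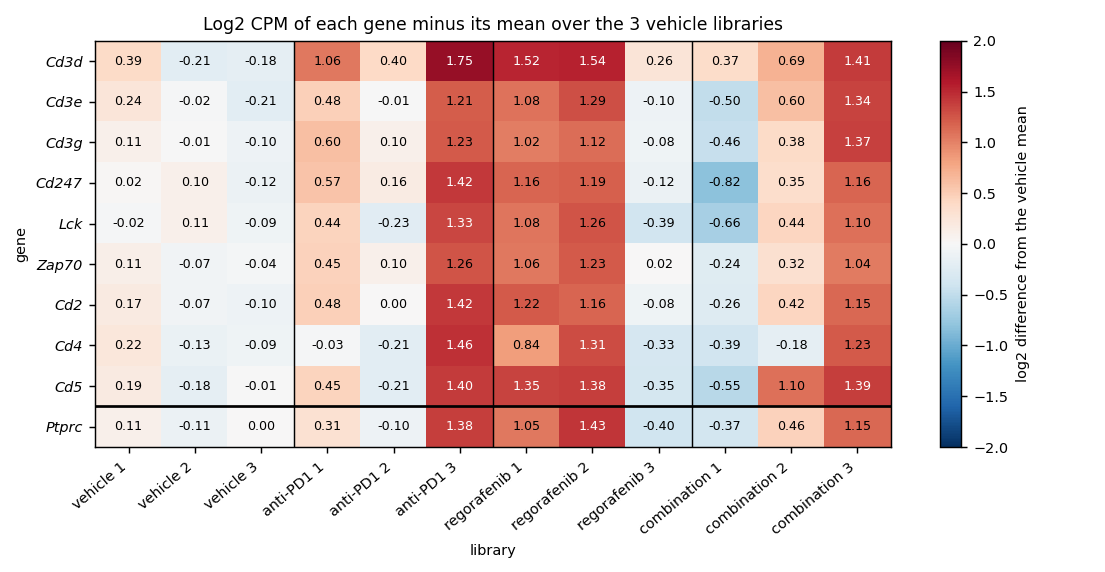
Log2 CPM of each of the 9 genes and of Ptprc (rows) in each of the 12 libraries (columns), given as the difference from the mean of the 3 vehicle libraries, with red for higher and blue for lower values. Anti-PD1 3, regorafenib 1, regorafenib 2 and combination 3 are red in every row, and combination 1 is blue in every row but Cd3d.

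Compared per kilobase of exon, Cd4 was the most abundant of the 9 transcripts in vehicle tumours at 5.65 ± 0.776 CPM per kilobase (SD, n = 3). Lck (4.19 ± 0.297) and Cd3g (3.57 ± 0.261) followed, then Cd2 (2.93 ± 0.319), Cd3d (1.97 ± 0.496), Zap70 (1.93 ± 0.137) and Cd3e (1.70 ± 0.272). Cd5 (0.879 ± 0.113) and Cd247 (0.568 ± 0.0444) were the least abundant. The levels of Cd3d and Zap70, and those of Cd3d and Cd3e, differed by less than the SD of Cd3d. By this measure gamma was highest and zeta lowest within the CD3 complex, with delta and epsilon not told apart. The length used is that of all annotated exons of a gene merged, which may differ from that of the transcript made. In plain CPM of the vehicle group Cd3e was at 6.95 ± 1.11, Cd3d at 3.57 ± 0.901 and Cd247 at 3.03 ± 0.237. Cd247 shares 3007 of its 5329 exonic bases with Pou2f1 on the opposite strand. The libraries were stranded, but the strand setting of the counting is not given in the sources used here. Pou2f1 averaged 44.9 ± 0.790, 52.9 ± 8.61, 45.9 ± 7.91 and 57.4 ± 9.17 CPM for vehicle, anti-PD1, regorafenib and combination. Whether reads from the shared bases were added to Cd247 or lost from it was not tested. Cd3e shares 135 exonic bases with the antisense gene Gm48719, which had 0 counts in every library.

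Cd3d encodes CD3 delta, which pairs with epsilon. Its level was 4.61, 3.02 and 3.09 CPM in vehicle 1 to 3, 7.38, 4.65 and 11.96 with anti-PD1, 10.2, 10.3 and 4.21 under regorafenib, and 4.55, 5.71 and 9.42 with the combination. All 3 anti-PD1 libraries lay above the 3 vehicle libraries, anti-PD1 2 narrowly so, while regorafenib 3 and combination 1 lay inside the vehicle range. Group means were 3.57 ± 0.901, 7.996 ± 3.696, 8.26 ± 3.51 and 6.56 ± 2.54 CPM (SD, n = 3) for vehicle, anti-PD1, regorafenib and combination. Cd3d was the gene of the 9 with the largest fitted fold change against vehicle for every treatment.

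Cd3e encodes CD3 epsilon, the partner of both delta and gamma. It measured 8.14, 6.79 and 5.94 CPM in vehicle 1 to 3, 9.67, 6.83 and 16.1 with anti-PD1, 14.7, 17.0 and 6.42 under regorafenib, and 4.86, 10.5 and 17.6 with the combination. Every treated group overlapped vehicle, and combination held both the lowest and the highest of the 12 values. Cd3g, which encodes CD3 gamma, ran from 8.44 CPM in combination 1 to 30.2 in combination 3, with a mean of 11.7 ± 0.855 in vehicle tumours and of 18.0 to 20.0 in the treated groups.

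The zeta chain carries most of the tyrosine motifs of the complex. Its gene, Cd247, measured 3.06, 3.25 and 2.78 CPM with vehicle, 4.54, 3.38 and 8.22 with anti-PD1, 6.85, 6.99 and 2.77 under regorafenib, and 1.68, 3.86 and 6.85 with the combination. The anti-PD1 libraries again did not overlap vehicle, but only narrowly, as anti-PD1 2 and vehicle 2 both had 88 counts. Cd247 had the widest range of the 9 genes, 4.90-fold from combination 1 to anti-PD1 3, at the lowest counts.

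**Figure D2:**
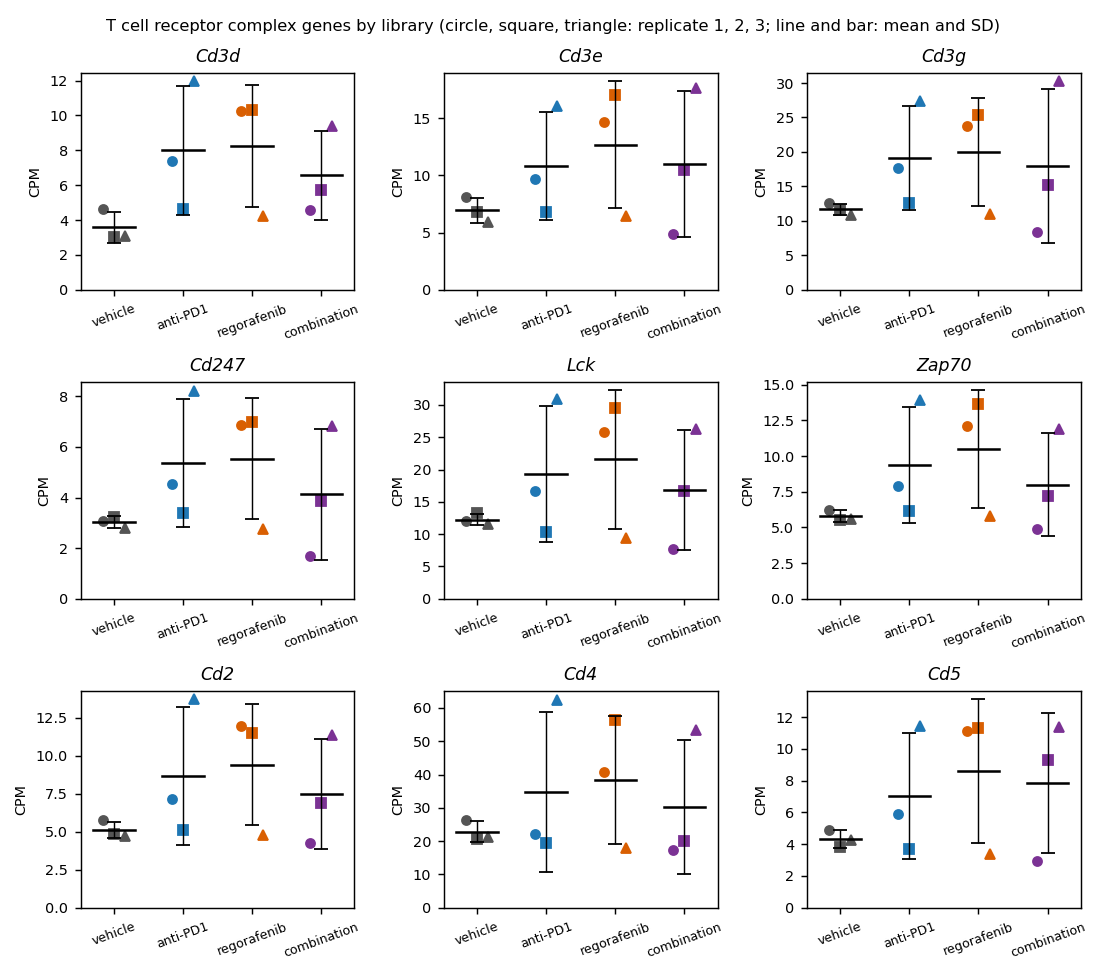
Levels of the 9 genes in CPM (vertical axes, starting at 0) in the 12 libraries by group, with circles, squares and triangles for replicates 1, 2 and 3, and lines and bars for the mean and SD of 3 libraries. The vehicle points lie close together, and each treated group spreads from near the vehicle level or below it to well above it.

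Lck (chromosome 4, 129548344 to 129573641), the kinase that phosphorylates the CD3 motifs, measured 12.1, 13.2 and 11.5 CPM with vehicle. It measured 16.6, 10.4 and 30.9 with anti-PD1, 25.9, 29.5 and 9.34 under regorafenib, and 7.73, 16.6 and 26.3 with the combination. Each treated group thus had 1 library below all 3 vehicle libraries and at least 1 far above them. Zap70 (chromosome 1, 36761798 to 36782818), the kinase recruited to the phosphorylated motifs, ran from 4.86 (combination 1) to 14.0 CPM (anti-PD1 3), the narrowest range of the 9 genes at 2.87-fold. Its vehicle mean was 5.78 ± 0.410 CPM, and its treated means were 9.36 ± 4.09, 10.5 ± 4.14 and 7.99 ± 3.59 for anti-PD1, regorafenib and combination.

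Cd4 (chromosome 6, 124864692 to 124888221), the coreceptor gene of helper and regulatory T cells, measured 26.4, 20.7 and 21.3 CPM with vehicle, 22.2, 19.5 and 62.4 with anti-PD1, 40.6, 56.4 and 18.0 under regorafenib, and 17.3, 20.0 and 53.3 with the combination. Cd4 differed from the other members in anti-PD1 1 and combination 2, which lay inside or below its vehicle range, while 8 of the 9 genes in each of these libraries lay above all vehicle libraries, the exception being Cd4. In mice CD4 marks T cells, and low levels also occur in some myeloid cells. Cd2 (chromosome 3, 101275899 to 101287939) ran from 4.24 (combination 1) to 13.8 CPM (anti-PD1 3), around a vehicle mean of 5.11 ± 0.555.

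Cd5 (chromosome 19, 10717116 to 10739002), the inhibitory receptor, measured 4.91, 3.80 and 4.28 CPM with vehicle, 5.90, 3.72 and 11.5 with anti-PD1, 11.1, 11.3 and 3.36 under regorafenib, and 2.92, 9.29 and 11.4 with the combination. Its value in combination 2 stood nearer to the 4 high libraries than in any other member, at 1.10 above the vehicle mean on the log2 scale. The pooled SD within groups was larger for Cd5 than for the other 8 genes, at 0.83 on the log2 scale, and was 0.55 to 0.77 for those.

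The spread between libraries of a treated group was wide for all 9 genes. The median SD of log2 CPM over the 9 genes was 0.15 in the vehicle group, 0.67 with anti-PD1, 0.75 under regorafenib and 0.89 with the combination. Over all tested genes it was 0.12, 0.19, 0.25 and 0.21 in the same order. The pooled SD within groups of each of the 9 genes lay between the 82.8th and the 94.3rd percentile of the tested genes.

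The kinase inhibitor alone was compared with vehicle first. All 9 genes had a positive log2 fold change, from 0.75 for Cd4 to 1.21 for Cd3d, with a median of 0.87 against 0.0069 over all tested genes. In this and the comparisons below, 47.9% to 52.7% of all tested genes were positive. The 9 genes varied together (r of 0.93 to 0.995 with their mean profile), so a shared sign is not 9 separate results. Cd3d was 2.31-fold higher (95% interval 1.18 to 4.53), with an unadjusted p of 0.0196 and an adjusted p of 0.267 by edgeR's quasi-likelihood test. Cd5 was 1.98-fold higher (0.817 to 4.81), Zap70 1.82-fold (0.976 to 3.40) and Lck 1.76-fold (0.790 to 3.90). After adjustment 0 of the 9 genes passed at 0.05, where 0.00589% of all tested genes did. Without adjustment 1 of the 9, Cd3d, had p under 0.05 and was higher, as were 8.14% of all tested genes, and DESeq2 also called 0, where it called 2.42% of the genes it tested, with 2 at an unadjusted p under 0.05. In 0 of the 9 genes did all 3 regorafenib libraries lie above all vehicle libraries, which was so for 10.6% of tested genes, since regorafenib 3 stood at the vehicle level. The unadjusted count of 1 was 8 without regorafenib 3, and 2 without anti-PD1 3, combination 1 or combination 3. It was 0 without vehicle 2, vehicle 3, regorafenib 1 or regorafenib 2, and 5 with only these 2 groups in the fit. The share of all tested genes with an unadjusted p under 0.05 was not computed for these fits, nor for DESeq2. The same holds for the comparisons below, so such counts cannot be read as particular to the 9 genes.

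The antibody alone was compared with vehicle next. The 9 log2 fold changes ran from 0.61 (Cd4) to 1.16 (Cd3d), with a median of 0.70 against 0.010 over all tested genes. Cd3d was 2.24-fold higher (95% interval 1.14 to 4.39, p 0.0232, adjusted p 0.865 by edgeR) and Cd247 1.78-fold higher (0.812 to 3.89, adjusted p 0.865). Both had all 3 anti-PD1 libraries above vehicle, anti-PD1 2 only narrowly, which makes 2 of 9 genes, where 7.93% of tested genes had it. By edgeR 0 of the 9 passed, as did 0% of tested genes. Without adjustment 1 of the 9, Cd3d, had p under 0.05 and was higher, against 3.31% of tested genes, and DESeq2 called 0, against 0.00615% of the genes it tested, with 1 unadjusted. Without anti-PD1 3 the median was 0.27, and Cd4 was at -0.12. The unadjusted count was 0 without vehicle 2, vehicle 3 or anti-PD1 3, and 3 with only these 2 groups in the fit.

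The combination had the smallest median difference from vehicle of the 3 treatments, though Cd3e and Cd5 differed least with anti-PD1. The log2 fold changes ran from 0.41 (Cd4) to 0.88 (Cd3d), with a median of 0.56 against 0.016 over all tested genes. Cd3d was 1.84-fold higher (95% interval 0.940 to 3.60, adjusted p 0.218 by edgeR), Cd5 1.82-fold (0.752 to 4.404) and Cd247 1.37-fold (0.625 to 2.99). By edgeR 0 of 9 passed in a comparison that called 7.34% of tested genes (1246), and 0 had an unadjusted p under 0.05 against 15.4% of tested genes that did and were higher. DESeq2 called 0 of 9, against 14.7% of the genes it tested, with 1 unadjusted. All 3 combination libraries lay above vehicle in 0 of the 9, against 19.6% of tested genes. Without combination 3 the median was 0.063, and Cd247, Lck and Cd4 were at -0.12, -0.0094 and -0.29. Without combination 1 the median was 0.83, and 4 of 9 had an unadjusted p under 0.05. That count was 1 without regorafenib 3 or with only these 2 groups in the fit. The share of all tested genes at that unadjusted threshold was not computed for these fits. The 1246 calls over all genes were 1 without any one vehicle library, and 23 and 12 without combination 1 and 2.

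**Figure D3:**
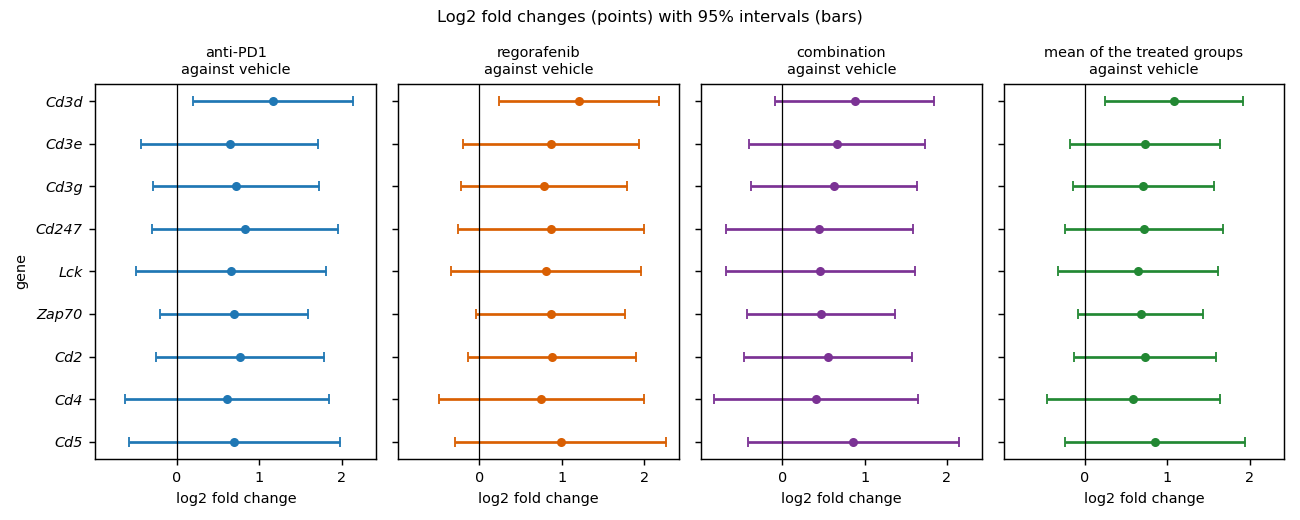
Log2 fold changes of the 9 genes (rows) against vehicle for anti-PD1, regorafenib, the combination and the mean of the 3 treated groups, as points with 95% intervals from the edgeR fit. All 36 points lie to the right of 0, and the interval excludes 0 for Cd3d with anti-PD1, under regorafenib and for the treated mean, before adjustment for the number of genes tested.

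The mean of the 3 treated groups was also set against vehicle, a contrast chosen with earlier results of these data known. Its log2 fold changes ran from 0.59 (Cd4) to 1.08 (Cd3d), with a median of 0.72 against 0.013 over all tested genes. Cd3d was 2.12-fold higher (95% interval 1.19 to 3.78, p 0.0160), with an adjusted p of 0.183 by edgeR and of 0.0514 by DESeq2. By edgeR 0 of 9 passed, against 0.00589% of tested genes, and 1 of 9, Cd3d, had an unadjusted p under 0.05 and was higher, against 10.4% of tested genes. DESeq2 called 0 of 9, against 5.17% of the genes it tested, with 2 unadjusted. The edgeR count at an unadjusted p under 0.05 was 7 without combination 1, 6 without regorafenib 3, and 0 without vehicle 2 or vehicle 3. No share of all tested genes at that unadjusted threshold was computed for these fits. The share of tested genes that passed after adjustment was 0.294% without anti-PD1 2. The 9 treated libraries lay above all 3 vehicle libraries in 0 of the 9 genes, as they did in 2.04% of tested genes.

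Between the treated groups the 9 genes differed by less than the spread of the libraries. Combination against anti-PD1 had a median log2 fold change of -0.20, with 2 of 9 genes positive, and combination against regorafenib a median of -0.33, with 0 of 9 positive. By edgeR 0 of 9 passed in either, where 1.92% and 0% of tested genes did, 0 had an unadjusted p under 0.05, where 7.91% and 1.57% of tested genes did and were lower, and DESeq2 gave the same 2 counts of 0, where it called 7.19% and 0.0123% of the genes it tested. The 1.92% of combination against anti-PD1 was 0% without anti-PD1 2, anti-PD1 3 or combination 2, 0.121% without combination 1, 1.2% without regorafenib 3, and 0.258%, 0.513% and 0.334% without vehicle 1, 2 and 3. For Cd3d the 2 differences were -0.28 ± 0.43 and -0.33 ± 0.43 (SE). The first median was -0.33, -0.49 and 0.28 without anti-PD1 1, 2 and 3, and 0.072 and -0.64 without combination 1 and 3. The second was -0.15, -0.076 and -0.66 without regorafenib 1, 2 and 3, and -0.058 and -0.76 without combination 1 and 3.

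The interaction asks whether the combination differed from the sum of both single effects. All 9 genes were negative, with a median log2 value of -1.004 against -0.0049 over all tested genes, and from -0.82 (Cd5) to -1.49 (Cd3d). For Cd3d the value was -1.49 ± 0.61 (SE), with an unadjusted p of 0.0340 and an adjusted p of 1.00 by edgeR. By edgeR 0 of 9 passed, as did 0% of tested genes, 1 of 9, Cd3d, had an unadjusted p under 0.05 and was lower, against 1.12% of tested genes, and DESeq2 gave the same 2 counts, with 0% of genes called. The median was -0.55 without anti-PD1 3, and -1.50 and -1.38 without combination 3 and regorafenib 3. The unadjusted count was 6 and 4 without combination 3 and regorafenib 3, and 2 without anti-PD1 2. It was 0 without vehicle 2, vehicle 3, anti-PD1 3, regorafenib 1, regorafenib 2, combination 1 or combination 2. No share of all tested genes at an unadjusted p under 0.05 was computed for these fits. All 3 contrasts against vehicle and the interaction share the vehicle libraries, so their values are not independent of each other.

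Averaged over both backgrounds, regorafenib had a median log2 effect of 0.34 on the 9 genes and anti-PD1 one of 0.22, both with 9 of 9 positive. After adjustment 0 of 9 passed by edgeR in either, where 9.49% and 0% of tested genes did, and 0 had an unadjusted p under 0.05 by edgeR or DESeq2, where 15% and 5.5% of tested genes did by edgeR and were higher. DESeq2 called 0 of 9 in either, against 16.4% and 0.00922% of the genes it tested. The 9.49% was 2.65% to 5.76% without any one of vehicle 1, 2 and 3, anti-PD1 2 and 3, and combination 1 and 2, and without regorafenib 3 the unadjusted count for regorafenib was 1. The regorafenib median was 0.20, 0.58 and 0.11 without anti-PD1 2, anti-PD1 3 and combination 3. That of anti-PD1 was 0.34 and -0.017 without anti-PD1 2 and 3, 0.053 without regorafenib 3, and 0.39 and -0.038 without combination 1 and 3.

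Ptprc encodes CD45, a phosphatase of all nucleated blood cells that also keeps LCK ready to act. It measured 70.8, 60.9 and 66.0 CPM with vehicle, 81.5, 61.5 and 172 with anti-PD1, 136, 177 and 49.8 under regorafenib, and 50.8, 90.2 and 146 with the combination, so the same 4 libraries were highest. Divided by Ptprc, the 9 genes varied less: the SD of the log2 level over the 12 libraries was 0.56 to 0.78 in CPM and 0.14 (Lck) to 0.31 (Cd3d) as a ratio. The ratio of the 9 treated to the 3 vehicle libraries was 0.912 for Cd4 to 1.09 for Cd5 in 8 of the genes, with p-values of 0.364 to 0.827 in exact two-sided permutation tests.

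Cd3d had the largest of these ratios. Its CPM was 6.52%, 4.97% and 4.68% of that of Ptprc in vehicle 1 to 3, 9.06%, 7.55% and 6.97% with anti-PD1, 7.52%, 5.83% and 8.45% under regorafenib, and 8.96%, 6.32% and 6.44% with the combination. Of the 9 treated libraries, 6 lay above all vehicle libraries and 0 below them. The ratio was 1.38 times that of vehicle (exact two-sided permutation test, p 0.0364, adjusted p 0.327 over the 9 genes), so 0 of 9 passed. With the geometric mean of 8 leukocyte genes in place of Ptprc, 3 of the 9 passed, each with all 9 treated libraries above all 3 vehicle libraries. They were Cd3d at 1.57 times vehicle, Cd2 at 1.19 and Zap70 at 1.16 (exact permutation test, p 0.00909, the smallest that 9 against 3 libraries allow, adjusted p 0.0273). The call of these 3 genes thus depended on the denominator. The share of all tested genes that would pass or separate when divided by the same list was not computed.

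**Figure D4:**
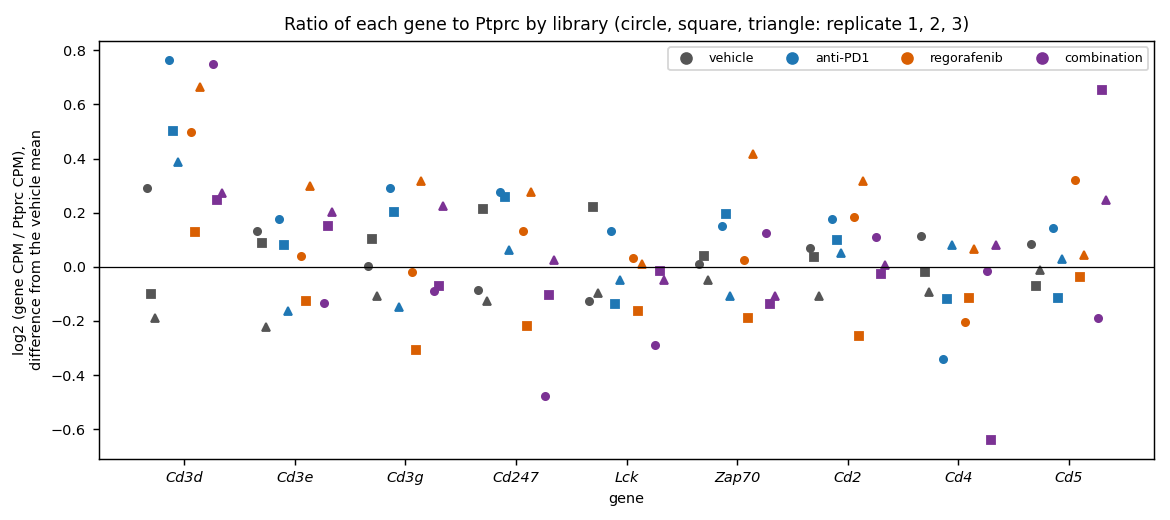
Log2 ratio of the CPM of each gene to that of Ptprc, as the difference from the vehicle mean (vertical axis), for the 9 genes (horizontal axis) in 12 libraries, with colours for groups and circles, squares and triangles for replicates 1, 2 and 3. All 9 treated points of Cd3d lie above 0, and those of the other genes lie on both sides of it.

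The proportion of CD3 chains to each other was examined through the ratio to Cd3e, added after the values had been seen. Cd3d was 0.567, 0.446 and 0.519 times Cd3e in CPM with vehicle, 0.763, 0.680 and 0.745 with anti-PD1, 0.697, 0.607 and 0.655 under regorafenib, and 0.936, 0.543 and 0.534 with the combination. All anti-PD1 and regorafenib libraries lay above the vehicle range, and combination 2 and 3 lay inside it. The treated ratio was 1.33 times that of vehicle (exact two-sided permutation test, p 0.0364, adjusted p 0.291 over 8 ratios), and 0 of 8 passed. Cd3g to Cd3e was 0.990 times vehicle and Cd247 to Cd3e 0.977 times, with p 0.873 and 0.827 by the same exact test. Of the 8 ratios, that of Cd3g to Cd3e had the smallest SD over the 12 libraries, 0.11 on the log2 scale.

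Co-variation with Cd3e was measured within the 8 libraries below the widest gap, since the 12 fell into separate sets and a pooled correlation would mostly restate the gap. Pearson's r was 0.97 for Cd2, 0.94 for Cd3g, 0.94 for Zap70, 0.91 for Cd5, 0.91 for Lck and 0.88 for Cd247. These 6 of 8 relations passed, with adjusted p-values of 0.00218 to 0.00433 by exact permutation over n = 8 libraries. Spearman's rho was 0.81 to 0.98 for them, with adjusted p of 0.00159 to 0.0290 by the same exact permutation. Cd4 had r 0.51 and rho 0.50 (exact permutation, adjusted p 0.192 and 0.216). Cd3d had r 0.64 and rho 0.74 (adjusted p 0.0944 and 0.0524, exact permutation). Without the 2 libraries farthest from the median of Cd3e, r was 0.74 to 0.96 for the 6 genes that passed, 0.79 for Cd4 and 0.069 for Cd3d. The relation of Cd3d to Cd3e in these libraries rested on those 2. How many of all tested genes would pass the same test against Cd3e was not computed. The 6 passes thus cannot be read as particular to these genes. The 8 libraries were chosen after values were seen, by a gap in the mean level of the genes described here, Cd3e included.

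The 10 other genes with profiles most like the mean of the 9 over 12 libraries were Nkg7, Fmnl1, Klrk1, Lat, Ppp1r16b, Ptprc, Dock2, Itgal, Rab27a and Rac2, with r of 0.990 down to 0.984. Nkg7 encodes a granule membrane protein of cytotoxic lymphocytes, Klrk1 the activating receptor NKG2D, Lat the adaptor phosphorylated by ZAP-70, and Itgal the alpha chain of the integrin LFA-1. Of the 16965 other tested genes, 384 had r above 0.9, and the median r was -0.026. These values describe 12 points that include the 4 high libraries.

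The rest of the pathway was described by 6 lists of other genes, in the mean of the treated groups against vehicle. Of 69 genes 0 passed by edgeR, where 0.00589% of tested genes did, and 13 had an unadjusted p under 0.05, against 18.96% of tested genes in either direction. That count ran from 5 (without vehicle 3) to 26 (without regorafenib 3) on leaving out 1 library, with no share of all tested genes computed for those fits. DESeq2 called 4 of them, Sh2d2a, Cblb and Tnfrsf9 as higher and Bcl11b as lower, where it called 5.17% of the genes it tested. The counts by list are read against the same 18.96%. Receptor constant chains had 6 of 7 genes positive with a median log2 fold change of 0.60, and 1 with an unadjusted p under 0.05. Coreceptors and costimulators had 11 of 11 positive with a median of 0.73, again with 1. Downstream adaptors and enzymes had 16 of 17 positive with a median of 0.52, and 6 with an unadjusted p under 0.05. Negative regulators had 13 of 13 positive (median 0.44, 2 unadjusted), genes induced by receptor signalling 11 of 12 (0.47, 1 unadjusted) and T lineage transcription factors 7 of 9 (0.33, 2 unadjusted). Positive values made up 52.2% of all tested genes. Genes named below from each list are mainly those of smallest p in this same contrast, so their values do not stand for the list.

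Among receptor chains, Trac, the alpha constant region, averaged 7.09 ± 1.23 CPM with vehicle (SD, n = 3) and 12.8 ± 5.07, 15.5 ± 8.43 and 13.0 ± 6.61 with anti-PD1, regorafenib and combination. Trbc2 and Trbc1, the beta constant regions, were 1.81-fold and 1.52-fold higher in the treated mean. Their sequences are near-identical, so reads between them may have been split. Tcrg-C2, a gamma constant region of gamma delta T cells, was 1.82-fold higher (adjusted p 0.203 by edgeR). The delta constant region, Trdc, was at a log2 fold change of -0.067 (adjusted p 0.931 by edgeR). The gamma regions Tcrg-C1 and Tcrg-C4 were at 0.43 and 0.37 (adjusted p 0.727 and 0.631 by edgeR). Whether these chains differed from each other was not tested, and Trdc and Tcrg-C1 averaged only 1.37 and 1.07 CPM over the 12 libraries. The fold changes of Cd3g, Cd3e and Cd3d in the same contrast were 1.63, 1.65 and 2.12.

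Among coreceptors, Cd8a averaged 14.9 ± 1.35 CPM with vehicle and 23.5 ± 7.51, 27.5 ± 10.4 and 24.2 ± 13.1 in the treated groups, 1.68-fold higher in their mean. Cd8b1, its partner chain, was 1.63-fold higher, and Cd4 1.504-fold. Cd27, a costimulatory receptor, was 2.22-fold higher, and Cd6, a receptor related to CD5, 1.77-fold, against 1.80-fold for Cd5. The lowest adjusted p of the coreceptor list was 0.256, for Cd27, by edgeR.

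Downstream of the kinases, Fyb, an adaptor that links the receptor to integrins, averaged 31.4 ± 2.82 CPM with vehicle and 39.9 ± 12.3, 45.5 ± 2.704 and 49.9 ± 10.6 in the treated groups (1.43-fold, adjusted p 0.175 by edgeR). Sh2d2a, an adaptor that binds LCK, was 2.397-fold higher (adjusted p 0.188), Txk, a kinase of the TEC family, 2.24-fold (0.210), and Themis, which tunes receptor signals during development, 2.05-fold (0.202). Of the negative regulators, the genes of smallest p had like values, while the list as a whole went down to 0.034 on the log2 scale, with a median of 0.44. Cblb, a ubiquitin ligase that restrains T cell activation and is also made by other cells, averaged 80.7 ± 11.04 CPM with vehicle and 150 ± 18.5, 131 ± 33.9 and 133 ± 25.8 in the treated groups. It was 1.71-fold higher, with an adjusted p of 0.1005, the smallest of the 6 lists. Sla2, Dok2 and Ubash3a, further inhibitors of proximal signalling, were 1.93-fold, 1.92-fold and 1.84-fold higher, with adjusted p of 0.253, 0.266 and 0.351.

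Of genes induced when the receptor is engaged, Tnfrsf9, which encodes 4-1BB, averaged 6.52 ± 2.01 CPM with vehicle and 14.4 ± 7.18, 16.9 ± 3.88 and 15.6 ± 7.01 in the treated groups (2.39-fold, adjusted p 0.139 by edgeR). Irf4 and Tnfrsf4, which encodes OX40, were 1.82-fold and 1.86-fold higher. Nr4a1, an early response gene of many cell types, was 1.34-fold higher. These 4, named for having the smallest p of their list, did not pass by edgeR. The other genes of that list ran from -0.12 to 0.78 in log2 fold change. Of the transcription factors, Ikzf3, Satb1 and Tcf7 were 1.93-fold, 1.71-fold and 1.28-fold higher. Bcl11b went the other way, from 54.6 ± 5.72 CPM with vehicle to 39.1 ± 5.73, 39.7 ± 9.13 and 38.1 ± 4.25 (0.714-fold, adjusted p 0.128). It is a T lineage factor that squamous epithelium also makes.

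**Figure D5:**
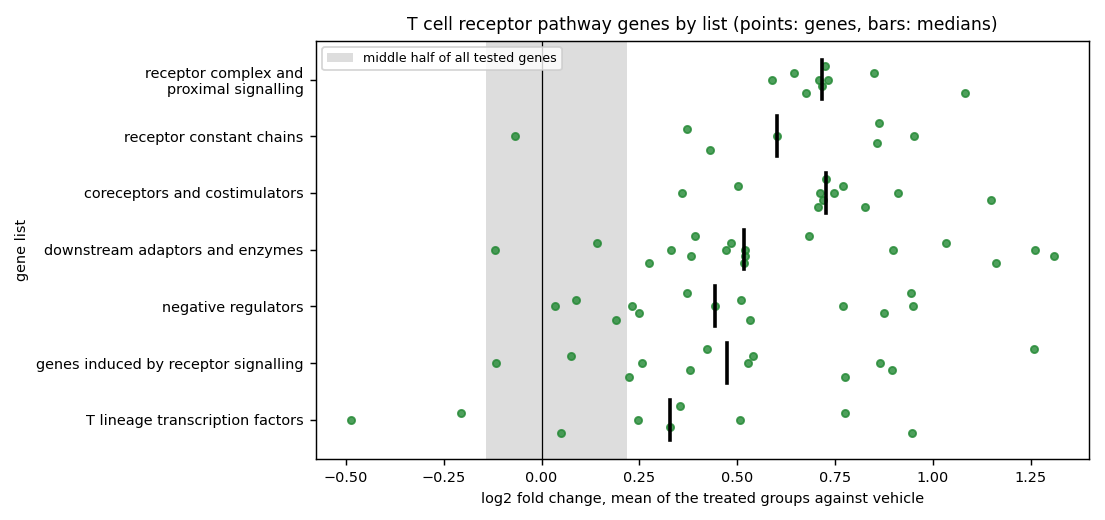
Log2 fold changes of the mean of the treated groups against vehicle (horizontal axis) for the 9 genes and for 6 lists of other genes of the pathway (rows), with points for genes, black bars for medians and grey for the range between the quartiles of all tested genes. The median of the 9 is 0.72, those of the 6 lists run from 0.33 to 0.73, and Bcl11b is the leftmost point at -0.49.

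Markers of other cells moved with the 9 genes from library to library. The summed level of 10 NK cell genes was 19.3 to 27.9 CPM with vehicle, 24.3 to 66.7 with anti-PD1, 26.5 to 79.3 under regorafenib and 21.5 to 57.2 with the combination. Its 4 highest libraries were the 4 that were highest for the T cell genes. The same held for sums of 10 macrophage and monocyte genes (405 to 1152 CPM over all libraries), 8 dendritic cell genes (20.0 to 78.5) and 8 leukocyte genes (293 to 909). Of the NK list, Klra4 had 0 counts in all libraries and Klra8 at most 1, while Ncr1, a defining receptor, averaged 3.02 CPM. Cd2, Cd247, Lck and Zap70 are also made by NK cells, and Cd3d, Cd3e, Cd3g and Cd5 less so. The part of these cells in the results above was not tested.

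The remaining lists shared part of this order or none of it. The sum of 7 B cell genes was 1.22 to 3.66 CPM, and 4 of the 7 were under the filter. The sum of 7 neutrophil genes was 10.1 to 16.8 CPM with vehicle, 14.9, 9.48 and 27.2 in anti-PD1 1 to 3, 39.5, 35.1 and 13.2 in regorafenib 1 to 3, and 25.9, 34.6 and 47.7 in combination 1 to 3. Its 3 highest libraries were thus among the 4 that were highest for the T cell genes, while combination 1, lowest in 8 of the 9 T cell genes, was above vehicle here. The labelled tumour type showed in 8 squamous genes, keratins among them, whose sum ran from 11336.5 CPM (regorafenib 2) to 16789.6 (vehicle 2). Skeletal muscle genes gave 2.03 CPM in regorafenib 1 and 92.3 to 386 CPM elsewhere. The sum of 4 Y-linked genes was highest in anti-PD1 3 (42.3 CPM), regorafenib 2 (41.7) and combination 3 (34.6), which are among the same 4, followed by vehicle 1 (33.6) and regorafenib 1 (32.1), and lowest in regorafenib 3 (18.1). The part of tissue content in the values of the 9 genes was not tested.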

How the data were processed

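RNA was measured in 12 samples in 4 groups of 3, from stranded libraries of polyadenylated RNA. The authors deposited raw read counts per Ensembl gene in 1 table, and the submitters' processing notes name cutadapt 2.4, STAR 2.7.2a and GRCm38, while the counting tool, whether it used strand, and the annotation are not given in the sources used here. GENCODE M21 gave symbols and positions (54435 of 55487 identifiers equal with version, 55227 without). Genes were kept by filterByExpr (minimum count 10, minimum total 15), scaled by TMM and tested in edgeR 4.0.16 (R 4.3.3) with robust quasi-likelihood F tests on 4 group means (8 residual degrees of freedom), two-sided, with Benjamini-Hochberg adjustment over 16974 genes and a threshold of 0.05. Log2 CPM used a prior count of 2, fold changes come from the fit, and intervals (95%) are unadjusted. The common biological coefficient of variation was 0.227, and counting error at the lowest count of the 9 genes was 16.2%. Ratios were tested by exact permutation in scipy 1.17.1 over 220 arrangements. Correlations had been planned over 12 libraries and are given over 8, by exact permutation over 40320 arrangements.

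Named are the 9 genes, Ptprc, up to 4 genes of smallest p in the treated mean for each of 6 pathway lists, and the 10 genes of most similar profile. Cell type lists are given as sums. Pou2f1, Gm48719, Trdc, Tcrg-C1, Tcrg-C4, Klra4, Klra8 and Ncr1 are named outside this rule, after their values were seen. The members, lists, treated mean and ratio to Ptprc were chosen with earlier results of these data known. The ratio to Cd3e and the count over 8 libraries were added after values were seen. DESeq2 1.42.0, RLE factors, no filter, a replicate block, fits of only the groups compared and leaving out each library were tried. The fits were also tested on simulated data. The replicate numbers of the labels showed no regular pairing of samples by 1 measure (2 of 18 same-numbered pairs had a correlation of deviations over 0.1). A weaker pairing or shared batch was not tested.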

Additional observations from a re-analysis of the deposited data

How the results depend on the processing

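Over 149 combinations of a comparison with an alternative setting, by edgeR or DESeq2, the count of the 9 genes that passed was 0, with a lowest adjusted p against vehicle of 0.0514 (Cd3d, treated mean, DESeq2). Of 603 alternative log2 fold changes against vehicle 599 were positive, but these are refits of the same libraries and not separate results. Leaving out 1 library, those that changed sign ran from -0.12 to 0.90 for Cd4 with anti-PD1, and with the combination from -0.12 to 0.82 for Cd247, -0.0094 to 0.80 for Lck and -0.29 to 0.68 for Cd4. In combination against anti-PD1, Cd3d ran from -0.64 to 0.11, and all 9 genes changed sign in some fit, as did 4 in combination against regorafenib, 2 in the average regorafenib effect, 7 in the average anti-PD1 effect and 0 in the interaction. The cause was not tested. With DESeq2, 4 genes of the 6 pathway lists passed, against 0 in all other settings, a count added after the data were seen. With the leukocyte list as denominator, 3 genes passed in place of 0, and Lck and Cd4 changed sign to 0.12 and 0.045 on the log2 scale; the cause was not tested. The small treated differences in the ratio to Ptprc also changed sign with 1 library left out: from -0.052 to 0.13 for Cd3e, -0.0096 to 0.096 for Cd3g, -0.038 to 0.13 for Cd247, -0.12 to 0.051 for Lck and -0.014 to 0.087 for Zap70. For the ratio to Cd3e the ranges were -0.080 to 0.042 for Cd3g, -0.14 to 0.030 for Cd247, -0.079 to 0.068 for Zap70, -0.032 to 0.072 for Cd2 and -0.016 to 0.17 for Cd5. Cd3d stayed positive in both, from 0.37 to 0.61 and from 0.31 to 0.49, with adjusted p of 0.327 to 0.982 and 0.145 to 0.945 (exact permutation). A prior count of 0.5 changed no call among the correlations.

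With replicate number as a block, 0 of the 9 genes passed in each comparison, and the median in the average anti-PD1 effect was 0.14 in place of 0.22. Over all tested genes this replicate block gave 11 calls in place of 1246 in combination against vehicle, 0 in place of 326 in combination against anti-PD1 and 504 in place of 1610 in the average regorafenib effect. Samples with the same number did not regularly deviate together: the correlation ran from -0.66 to 0.63 over 18 pairs, and 2 of 12 libraries correlated best with their own number. Calls over all genes also differed by more than 1.5 times under DESeq2, with 390 against 1 for regorafenib against vehicle, 2542 against 1246 for combination against vehicle, 1160 against 326 for combination against anti-PD1, 2749 against 1610 for the average regorafenib effect and 833 against 1 for the treated mean. Without the filter these counts were 663, 221 and 959 for combination against vehicle, combination against anti-PD1 and the average regorafenib effect, and with only the groups compared in the fit 2068 and 0 for the first 2. Depth limited Cd247 most, at 38 counts in combination 1.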
